A study of Mus musculus with 19 samples.

Results

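The cytosolic ribosomal protein genes encode the protein parts of the ribosome that works in the cytoplasm. They were taken by symbol, as names of the form Rpl or Rps followed by a number together with Rpsa, Rplp0, Rplp1 and Rplp2, leaving out the Rps6k kinases and symbols marked as pseudogenes. Of 18820 genes measured, 74 met this rule, and each was read from its brightest probe set with 1 gene symbol. Genes listed only on probe sets with several symbols, among them Rps16, Rpl37a and Rpl32, stand outside the 74. The 74 are therefore not the whole family. Expression was measured on 19 microarrays of 3T3-L1 cells, a mouse fibroblast line turned into fat-storing adipocytes in culture, at the end of a 48 h exposure to 1 fatty acid or to solvent. In all 5 groups the cells had been differentiated with dexamethasone, IBMX and insulin, then kept in insulin, without serum from day 7, and treated from day 8 in medium with 2% albumin. Control cells (n = 4) received ethanol only. The others received 250 µM of palmitic acid (PA, 16 carbons and 0 double bonds, n = 4), palmitoleic acid (PMA, named PMO in the sample titles, 16 carbons and 1 double bond, n = 4), stearic acid (SA, 18 carbons and 0 double bonds, n = 4) or oleic acid (OA, 18 carbons and 1 double bond, n = 3). The comparisons ask which of these genes differed with each acid, and whether the acids, set apart by chain length and a double bond, differed from each other.

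Ribosomal proteins are made in fixed proportions and assemble with ribosomal RNA into the small or the large subunit, and surplus protein is degraded. Their mRNAs carry a terminal oligopyrimidine tract, a run of C and T bases at the very start of the transcript, through which nutrient signalling by mTORC1 and the protein LARP1 controls how much of the mRNA is translated and stored. In adipocytes insulin is a main signal to that pathway.

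Values are log2 RMA expression, on which a difference of 1 is a doubling, and differences are given ± the standard error of a linear model (limma) with its two-sided p adjusted by Benjamini-Hochberg over all 18820 genes. The threshold for passing was an adjusted p of 0.05. Arrays of 1 group are labelled as biological replicates. The p-values measure the spread between them, and precision is limited by the number of arrays. All 4 acids were compared with the same 4 control arrays. RNA came from whole cultures, where fewer cells of a type and less RNA per cell cannot be told apart. The 11 adipocyte markers measured averaged between 11.17 and 11.30 on every array, led by Fabp4, Lpl and Adipoq, so the cells carried the marker genes of their label. The 8 markers of preadipocytes and fibroblasts averaged 9.97 to 10.23, those of macrophages and leukocytes 4.64 to 4.92, of endothelium 4.37 to 4.65 and of epithelium 5.24 to 5.58.

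The ribosomal protein genes were mostly bright in control cells, with group means from 3.70 to 12.6, a median of 10.9 and 63 of 74 above 9. Most are covered by more than 1 probe set (56 of 74, and 41 for Rpl21 alone), and processed pseudogenes nearly identical to the mRNA are common for this family, so a probe set may read more than 1 locus. Of the 74, 1 (Rps4l) is annotated in RefSeq as a transcribed pseudogene.

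Transcript starts in RefSeq (GRCm38.p6) were found for 60 of the 74 genes. They are shown for the 5 genes that were lower with OA. Among genes with a start found and a control mean above 9, the 4 whose difference with OA lay nearest to 0 are also shown. Both sets were chosen after their values were seen. Each window runs from 10 bases before the annotated start to 20 bases from it, 5′ to 3′ on the gene's strand, with the longest run of C and T in capitals. Where a gene has several annotated starts, the one with the longest run is printed.
Rps24, chr14:24490668-24490697, plus strand: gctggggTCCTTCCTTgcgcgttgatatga
Rpl35a, chr16:33056472-33056501, plus strand: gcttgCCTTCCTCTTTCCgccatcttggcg
Rpl11, chr4:136053374-136053403, minus strand: ccataaggccacggggccggaagTCTCCCT
Rps12, chr10:23787190-23787219, minus strand: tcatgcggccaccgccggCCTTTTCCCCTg
Rpl35, chr2:39005112-39005141, minus strand: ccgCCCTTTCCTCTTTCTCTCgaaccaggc
Rps25, chr9:44407704-44407733, plus strand: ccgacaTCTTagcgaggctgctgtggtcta
Rps6, chr4:86857348-86857377, minus strand: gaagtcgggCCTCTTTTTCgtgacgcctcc
Rpl38, chr11:114668570-114668599, plus strand: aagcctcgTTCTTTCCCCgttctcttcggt
Rps26, chr10:128626487-128626516, minus strand: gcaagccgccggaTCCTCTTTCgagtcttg
Both sets hold such runs. Among the genes lower with OA the longest was 18 bases (Rpl35) and the shortest 7 (Rpl11). Among those near 0 it was 10 in Rps6 and Rpl38, 9 in Rps26 and 4 in Rps25. The Rpl11 run reaches the last base of the window, so its full length is not known. A run need not lie at the very start. It spans bases 14 to 20 from the annotated start in Rpl11, 9 to 19 in Rps12 and 4 to 12 in Rps26. The window also holds 10 bases before the annotated start, and annotated starts were not checked against measured ones. Runs in this window are therefore not a count of terminal tracts, and do not tell whether a gene has one. A run of at least 8 bases lay in this window in 23 of the 60 ribosomal protein genes (38.3%), against 3517 of 27025 genes in the table (13%). It was there in 4 of the 5 genes lower with OA and in 19 of the 55 that did not pass (34.5%). In the 300 bases from 250 before to 50 after the start, searched on both strands, the ETS core CCGGAAG stood in 26 of 60 (43.3%) against 9.93% of all genes. The YY1 core AAGATGGC stood in 6 (10%, against 3.19%), and TATAAA in 7 (11.7%, against 15.7%).

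With OA, 5 ribosomal protein genes fell and 0 rose: Rps24, Rpl11, Rpl35, Rps12 and Rpl35a. These are 6.76% of the 74, beside 76 of all 18820 genes (0.404%) that fell and 86 (0.457%) that rose. The falls were small, from 0.26 to 0.45 on the log2 scale. Counting those with an unadjusted p under 0.05, 23 of 74 (31.1%) were lower and 0 higher, beside 3.65% and 7.99% of all genes.

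Rps24, a small-subunit protein needed to process the precursor of 18S rRNA and mutated in some families with Diamond-Blackfan anaemia, showed the largest difference. Its control arrays read 10.43, 10.48, 10.41 and 10.43, and its OA arrays 10.06, 9.92 and 9.98. The PA arrays read 10.42, 10.13, 10.50 and 10.41, the PMA arrays 10.21, 10.19, 10.07 and 10.12, and the SA arrays 10.10, 10.11, 10.13 and 10.27. Every OA array lay below all 16 other arrays, every PMA and SA array lay below every control array, and PA replicate 2 lay apart from the other PA arrays, which were at the level of the controls. The difference with OA was -0.45 ± 0.07 (limma adjusted p = 0.00419).

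Rpl11, which with Rpl5 and 5S rRNA forms a particle of the large subunit that also binds Mdm2 and stabilises p53, read 10.86, 10.91, 10.89 and 10.84 in control cells and 10.68, 10.47 and 10.54 with OA. It read 10.83, 10.92, 10.91 and 10.96 with PA, 10.70, 10.70, 10.69 and 10.72 with PMA, and 10.65, 10.57, 10.74 and 10.76 with SA. The OA, PMA and SA arrays all lay below the controls, and the PA arrays did not. With OA the difference was -0.31 ± 0.06 (limma adjusted p = 0.0167).

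Rps12, a protein of the beak of the small subunit, read 10.46, 10.48, 10.58 and 10.50 in control cells and 10.17, 10.24 and 10.19 with OA. It read 10.55, 10.40, 10.58 and 10.50 with PA, 10.30, 10.36, 10.27 and 10.37 with PMA, and 10.29, 10.31, 10.46 and 10.55 with SA. The OA arrays lay below every other array, the PMA arrays below every control array, and the PA and SA arrays overlapped the controls. The OA difference was -0.31 ± 0.06 (limma adjusted p = 0.0224).

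Rpl35, which sits beside the exit of the nascent peptide tunnel, read 11.59, 11.68, 11.68 and 11.63 in control cells and 11.43, 11.33 and 11.39 with OA, again below all 16 other arrays (-0.26 ± 0.05, limma adjusted p = 0.0193). Rpl35a, a large-subunit protein also mutated in Diamond-Blackfan anaemia, read 8.00, 8.24, 8.30 and 8.12 in control cells and 7.77, 7.78 and 7.95 with OA (-0.33 ± 0.08, limma adjusted p = 0.0454). For Rpl35a the OA arrays lay below the control and SA arrays and overlapped those of PA and PMA. Brighter probe sets listed for both Ino80 and Rpl35a did not pass, as given below.

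**Figure D1:**
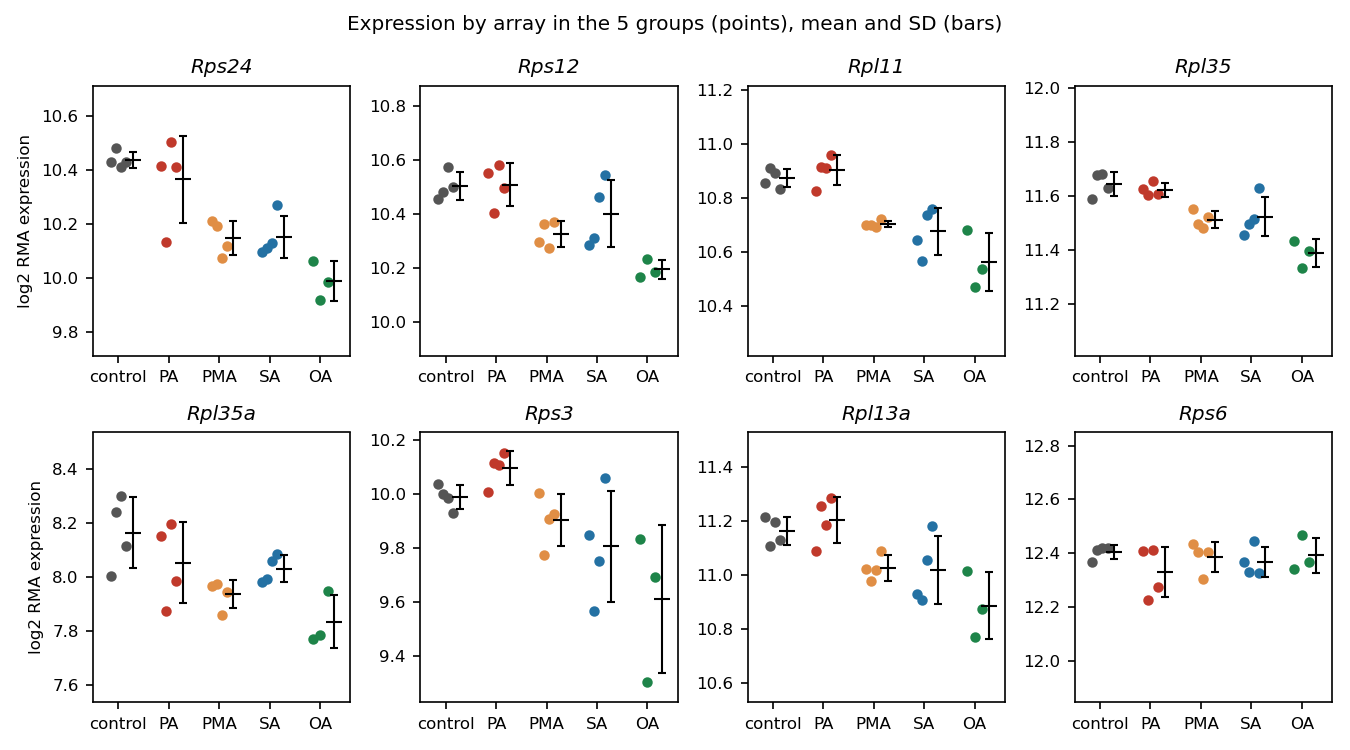
Log2 RMA expression (vertical axes) of 8 ribosomal protein genes on each array (points) in the 5 groups (horizontal axes), with group mean and SD as bars, n = 4 and n = 3 for OA; each vertical axis spans the same length at its own level. For Rps24, Rps12 and Rpl35 the 3 OA points lie below all 16 other points, and for Rps6 the 5 groups overlap.

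Several others came near the threshold without passing it. The OA difference was -0.28 ± 0.07 for Rpl13a (limma adjusted p = 0.0662), -0.21 ± 0.06 for Rpl17 (0.0780), -0.29 ± 0.08 for Rps14 (0.0809), -0.38 ± 0.10 for Rps3 (0.0901) and -0.30 ± 0.08 for Rps27l (0.0901). Rps3 lines the entry of the mRNA channel, and its OA arrays read 9.83, 9.30 and 9.69 against 9.93 to 10.03 in control cells, with replicate 2 the lowest. At the other end Rps6, the S6 kinase substrate, differed by -0.01, with a 95% interval from -0.13 to 0.11. Its level was 12.41 ± 0.03 in control cells and 12.39 ± 0.07 with OA (SD, n = 4 and n = 3). Rpl15 was the sole member whose OA arrays all lay above the controls, by 0.07 (limma adjusted p = 0.652), as they did for 9.72% of all genes.

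Across the whole list the OA differences ran from -0.45 to 0.13, with a median of -0.09 beside 0.02 for all genes. They were below 0 for 60 of 74 (81.1%, against 43.3% of all genes). In 32 of 74 (43.2%) every OA array lay below every control array, against 4.63% of all genes. OA had the lowest of the 5 group means for 45 of 74 (60.8%, against 24.9%). In 4 of them, Rps24, Rps12, Rpl35 and Rplp0 (5.41%, against 0.223%), all OA arrays lay below the 16 others. The median deviation of the 74 genes from their means over all arrays was -0.03, -0.09 and -0.04 on OA replicates 1, 2 and 3.

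By subunit, 3 of 44 large-subunit genes and 2 of 27 small-subunit genes fell with OA, with medians of -0.09 and -0.08. The 3 P stalk genes Rplp0, Rplp1 and Rplp2, whose proteins recruit elongation factors to the ribosome, gave -0.13, -0.19 and -0.28, and 0 passed. Rplp1 read 11.74, 11.29 and 11.69 with OA, against 11.60 to 11.87 in control cells, so replicate 2 drew its mean down. Rplp2 read 5.64, 4.99 and 5.62 with OA, so its mean was also drawn down by replicate 2, and control replicate 4 stood above the other controls. Its probe set was dim, with a mean of 5.54 over all arrays. A brighter probe set listed for both Wdr89 and Rplp2 (mean 6.66) differed by -0.03 with OA. Rpsa, the small-subunit protein also described as the laminin receptor precursor, differed by -0.03 (limma adjusted p = 0.927).

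**Figure D2:**
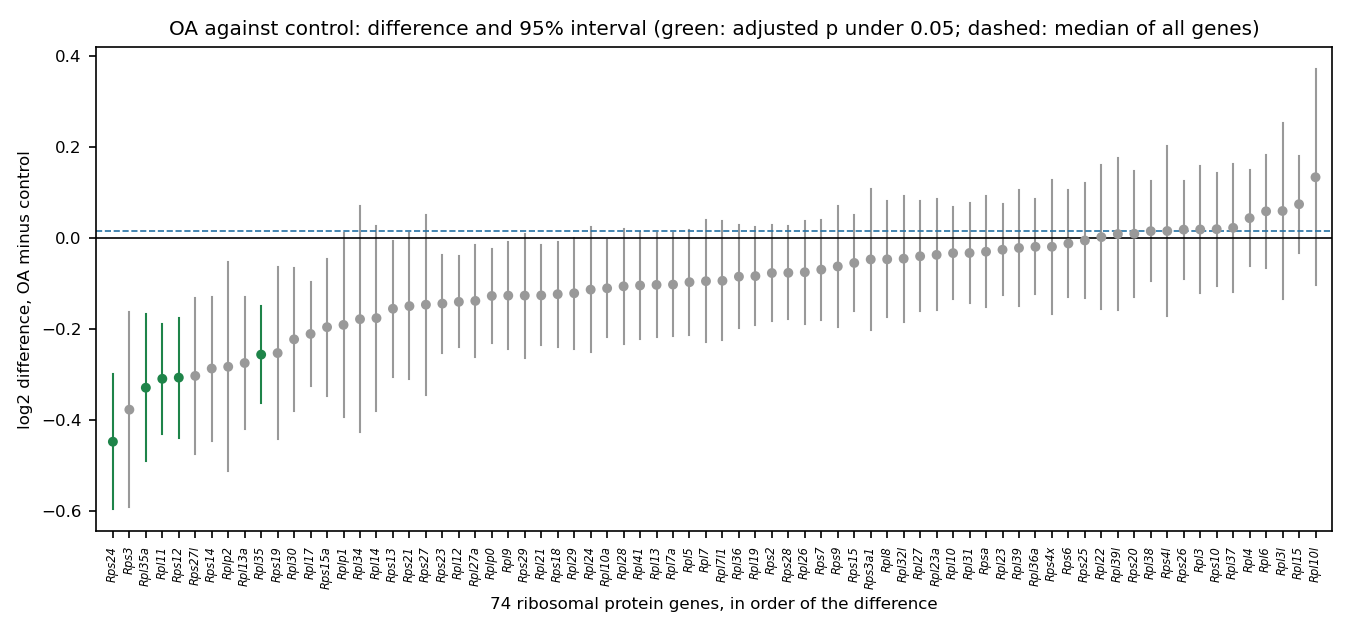
Log2 difference between OA and control (vertical axis) with its 95% interval for each of the 74 ribosomal protein genes (horizontal axis, ordered by the difference), green where the limma adjusted p is under 0.05; the dashed line is the median of all 18820 genes, 0.02. Differences run from -0.45 (Rps24) to 0.13 (Rpl10l), and 60 of 74 lie below 0.

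Rps24 alone kept its call whichever of the 19 arrays was left out, with an adjusted p of at most 0.0358. The count of 5 became 1 (Rps24) without OA replicate 2 or without OA replicate 3, 2 without control replicate 4, and 3 without control replicate 3 or OA replicate 1.

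The mean of the preadipocyte and fibroblast markers lay between 10.00 and 10.03 on the control arrays and between 10.06 and 10.13 on the OA arrays, with 0 of 8 past the threshold with OA. The mean of the adipocyte markers lay between 11.18 and 11.20 on the control arrays and between 11.25 and 11.30 on the OA arrays, with 0 of 11 past it. Of the 4 epithelial markers 1 passed with OA, the keratin Krt18, at 6.16 ± 0.07 in control cells and 6.54 ± 0.10 with OA (SD; difference 0.38 ± 0.07, limma adjusted p = 0.0177). With PMA 1 of the 8 preadipocyte and fibroblast markers passed, the collagen gene Col1a1 (0.26 ± 0.05, limma adjusted p = 0.0463). Their part in the differences of the ribosomal protein genes was not tested.

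With PMA and SA no ribosomal protein gene passed, and Rps24 again had the most negative difference. For PMA, 0 of 74 passed, beside 50 of all genes (0.266%), and for SA 0 of 74, beside 31 (0.165%). At an unadjusted p under 0.05, 12 were lower and 1 higher with PMA (1.49% and 14.5% of all genes), and 14 lower and 0 higher with SA (2.89% and 5.64%). Rps24 had the smallest p with both acids, at -0.29 ± 0.07 with PMA (limma adjusted p = 0.0631) and -0.28 ± 0.07 with SA (0.101). With PMA the next were Rpl35a (-0.23), Rpl11 (-0.17), Rps12 (-0.18) and Rpl17 (-0.15), with limma adjusted p from 0.143 to 0.175. With SA they were Rpl11 (-0.20), Rps19 (-0.24), Rps14 (-0.19) and Rpl35 (-0.12), with limma adjusted p from 0.171 to 0.430. Rps19, needed for small-subunit maturation, read 9.18, 9.19, 9.41 and 9.19 with SA, so replicate 3 stood above the others.

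The median difference of the 74 genes was -0.03 with PMA and -0.05 with SA, beside 0.06 and 0.02 for all genes. The PMA arrays were uneven: the median deviation of all genes from their means was 0.10 and 0.07 on replicates 1 and 4. On PMA replicates 2 and 3 it was -0.02 and 0.0001. For the 74 genes it was 0.06, -0.003, -0.03 and 0.01 on PMA replicates 1 to 4. The part of this unevenness in the PMA values was not tested. Every PMA array lay below every control array for 15 genes (20.3%, against 1.3% of all genes), and every SA array for 11 (14.9%, against 2.5%). Without PA replicate 2, 1 gene (Rps24) passed with PMA and 1 (Rps24) with SA.

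PA gave 0 of 74, beside 0 of all 18820 genes (0%), and at an unadjusted p under 0.05 there were 4 lower and 4 higher (4.55% and 10.9% of all genes). The median was -0.02 beside 0.03 for all genes, and 42 of 74 were below 0 (56.8%, against 38.3%). The smallest p with PA belonged to other genes than with the other 3 acids. Rpl10l, a paralogue of Rpl10 known from testis, read 4.28, 3.91, 4.34 and 4.21 in control cells and 4.32, 4.86, 4.50 and 4.61 with PA (0.39 ± 0.11, limma adjusted p = 0.197). Rpl3l, the striated muscle paralogue of Rpl3, differed by 0.27 ± 0.09 (0.225) and Rps4l by 0.22 ± 0.08 (0.244). Rpl10l, Rpl3l and Rps4l each read highest in PA replicate 2. Rpl29 (-0.17 ± 0.05) and Rpl21 (-0.12 ± 0.05), both of the large subunit, had limma adjusted p of 0.225 and 0.271. Without PA replicate 1, 2 genes (Rpl10l and Rpl3l) passed as higher.

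**Figure D3:**
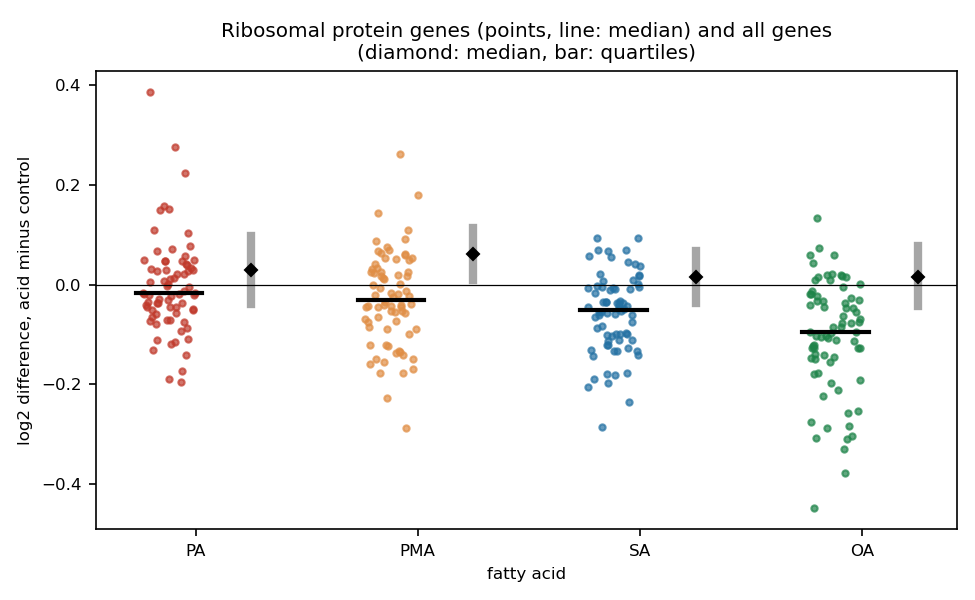
Log2 difference from control (vertical axis) of each of the 74 ribosomal protein genes (points) and their median (black line) for the 4 acids (horizontal axis), with the median (diamond) and quartiles (bar) of all 18820 genes. The medians of the ribosomal protein genes are -0.02 with PA, -0.03 with PMA, -0.05 with SA and -0.09 with OA; the 4 comparisons share their control arrays.

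Of the other paralogues, Rps27l, a p53-responsive relative of Rps27, is described above for OA, and the 5 remaining ones gave OA differences from -0.09 (Rpl7l1) to 0.13 (Rpl10l), with 0 of 6 passing. Their partners Rpl3, Rpl7, Rpl10, Rpl39, Rps4x and Rps27 gave OA differences of 0.02, -0.10, -0.03, -0.02, -0.02 and -0.15, and 0 of these passed. Rpl3l, Rpl10l and Rpl39l, the testis paralogue of Rpl39, were below a level of 4.95, the limit used to leave out the dimmest genes, and the other 71 genes were above it.

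The acids were compared with each other in 6 pairs, with p adjusted over genes within each pair. PA against OA, which differ in both chain length and the double bond, was the only pair in which ribosomal protein genes passed. All 6 were higher with PA (8.11% of 74), beside 131 of all genes (0.696%) higher and 231 (1.23%) lower with PA. They were Rpl11 (0.34 ± 0.06, limma adjusted p = 0.00459), Rps24 (0.38 ± 0.07, 0.0105), Rps12 (0.31 ± 0.06, 0.0155), Rps3 (0.49 ± 0.10, 0.0201), Rpl35 (0.23 ± 0.05, 0.0233) and Rpl13a (0.32 ± 0.07, 0.0241). In 17 of 74 (23%, against 6.67% of all genes) every PA array lay above every OA array, and the median difference was 0.07 beside 0.02.

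Rps3 read 10.01, 10.11, 10.11 and 10.15 with PA, 10.00, 9.77, 9.91 and 9.93 with PMA, and 9.85, 9.56, 9.75 and 10.06 with SA. The PA arrays lay above every OA array (9.83, 9.30 and 9.69), and the PMA and SA arrays overlapped the OA arrays. Rpl13a, a large-subunit protein also found in the GAIT complex, read 11.09, 11.26, 11.19 and 11.29 with PA and 11.02, 10.77 and 10.88 with OA. The OA arrays lay below the PA arrays for this gene too.

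The count for PA against OA became 3 without PA replicate 4, 2 without OA replicate 2 and 1 without OA replicate 3. With PA and OA arrays alone in the fit it was 0, and Rpl11 had an adjusted p of 0.149 and Rps24 of 0.214.

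The remaining 5 pairs gave 0 of 74 with limma. Of all genes 0.962% passed for PA against PMA, 0.0319% for SA against OA, 0.143% for PA against SA, 0.0531% for PMA against OA and 0.244% for SA against PMA. At an unadjusted p under 0.05 there were 11 of 74 for PA against PMA (14.9%, against 17.7% of all genes) and 5 for SA against OA (6.76%, against 2.4%). There were 13 for PA against SA (17.6%, against 15.8%), 9 for PMA against OA (12.2%, against 8.61%) and 1 for SA against PMA (1.35%, against 8.82%). The 5, 13 and 9 were all higher with the acid named first, beside 1.23%, 8.47% and 7.5% of all genes. For PA against PMA 8 were higher and 3 lower, beside 3.13% and 14.5% of all genes. The 1 for SA against PMA was lower, beside 7.69%. For Rps24 the differences were 0.22 for PA against PMA, with a 95% interval from 0.08 to 0.35, and 0.21 for PA against SA, from 0.08 to 0.35. SA and PMA differed by 0.00, from -0.14 to 0.14, which leaves room for a difference in either direction. SA exceeded OA by 0.16, from 0.01 to 0.31, and PMA exceeded OA by 0.16, from 0.01 to 0.31.

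For Rpl11 the corresponding differences were 0.20 for PA against PMA (0.09 to 0.31), 0.23 for PA against SA (0.11 to 0.34) and -0.03 for SA against PMA (-0.14 to 0.08). Without PA replicate 1, Rpl11 passed for PA against PMA and for PA against SA, and without PA replicate 2 Rps24 did. By group mean, Rps24 stood in the order control 10.44, PA 10.37, SA 10.15, PMA 10.15 and OA 9.99, and of the 10 pairs among these 5 groups only OA against control and OA against PA passed the threshold.

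The 2 saturated acids against the 2 monounsaturated ones gave 1 of 74, Rps12, higher with the saturated acids by 0.19 ± 0.04 (limma adjusted p = 0.0386), beside 26 of all genes (0.138%) higher and 78 (0.414%) lower. This call was lost in 12 of the 19 fits that left out 1 array and held without control 1, 2 or 3, PA 2, SA 1 or 2, or OA 2. The adjusted p was highest, 0.119, without OA replicate 1. Rpl11 (0.16, 0.0823) and Rps24 (0.19, 0.0845) did not pass in limma's test. The interaction term for chain length and the double bond gave 0 of 74, beside 1 of all genes (0.00531%), with 1 at an unadjusted p under 0.05, beside 5.24% of all genes.

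The mean of the 4 acids against control gave 1 of 74, Rps24, at -0.27 ± 0.05 (limma adjusted p = 0.0322), beside 18 of all genes (0.0956%) lower and 19 (0.101%) higher. It was lost in 9 of the 19 fits that left out 1 array, those without any 1 of the 4 controls, PMA 4, SA 1, 2 or 3, or OA 3. The adjusted p was highest, 0.168, without control replicate 4.

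The several probe sets of a gene give a second reading of these differences. In a fit over all 23099 annotated probe sets, 250 (1.08%) passed with OA. All 4 probe sets of Rps24 fell, by -0.43 to -0.57, as did all 6 of Rpl11 (-0.26 to -0.31), all 3 of Rpl35 (-0.25 to -0.26) and 7 of 12 of Rps12 (-0.25 to -0.31 over all 12). Of Rpl17's 17 probe sets 7 passed (-0.19 to -0.33 over all 17), 1 of 2 each for Rpl13a and Rps14, and 1 of 8 for Rpl12. Rpl21 (41 probe sets, -0.10 to -0.22) had 0 past the threshold and Rpl29 (24, -0.12 to -0.23) had 2. For Rps6 all 8 probe sets lay between -0.01 and 0.06. Probe sets of a gene share target sequence, so they are not independent measurements.

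Among probe sets with a ribosomal protein symbol that passed the threshold with OA, the largest fall was in some that carry 2 symbols and so stand outside the 74. The annotation lists 10 probe sets for both Gm12191 and Rpl30. Rpl30 is a large-subunit protein gene on chromosome 15, and Gm12191 is annotated in RefSeq as a transcribed pseudogene on chromosome 11. Their mean was 10.82 ± 0.17 in control cells, 10.43 ± 0.17 with PA, 10.34 ± 0.08 with PMA, 10.26 ± 0.12 with SA and 10.18 ± 0.04 with OA (SD over arrays, n = 4, and n = 3 for OA). The arrays ran from 10.63 to 11.01 in control cells, 10.28 to 10.64 with PA, 10.23 to 10.41 with PMA, 10.12 to 10.37 with SA and 10.13 to 10.22 with OA. PA overlapped the controls at the edge and the other 3 acids did not.

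All 10 passed with OA (-0.60 to -0.70), all 10 with SA (-0.53 to -0.61) and all 10 with PMA (-0.45 to -0.52). With PA 0 of 10 passed (-0.36 to -0.42, smallest limma adjusted p = 0.123). The background was 65 of 23099 probe sets (0.281%) with SA, 107 (0.463%) with PMA and 0 (0%) with PA. The probe set listed for Rpl30 alone was dim, at 5.89, 5.80, 5.81 and 5.90 in control cells and 5.58, 5.59 and 5.70 with OA, a difference of -0.22 that did not pass (limma adjusted p = 0.202). The values thus cannot be assigned to Rpl30 or to Gm12191.

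For other genes too the shared probe sets and the one with 1 symbol lay on different sides of the threshold, and the difference between them was not tested. The 3 probe sets listed for both Rps19-ps3 and Rps19 gave -0.28 each with OA and passed, where the one listed for Rps19 alone gave -0.25 and did not pass (limma adjusted p = 0.235). The 11 probe sets listed for both Ino80 and Rpl35a gave -0.13 to -0.20 with 0 past the threshold, where the one listed for Rpl35a alone gave -0.33 and passed. The 11 were brighter, with means over all arrays from 11.0 to 11.6, against 8.01 for the one that passed. In all, 33 of 385 probe sets with a ribosomal protein symbol alone and 13 of 64 with a further symbol fell with OA. Of all 23099 probe sets 250 (1.08%) passed in either direction. The 13 are the 10 listed for Gm12191 and Rpl30 and the 3 listed for Rps19-ps3 and Rps19.

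**Figure D4:**
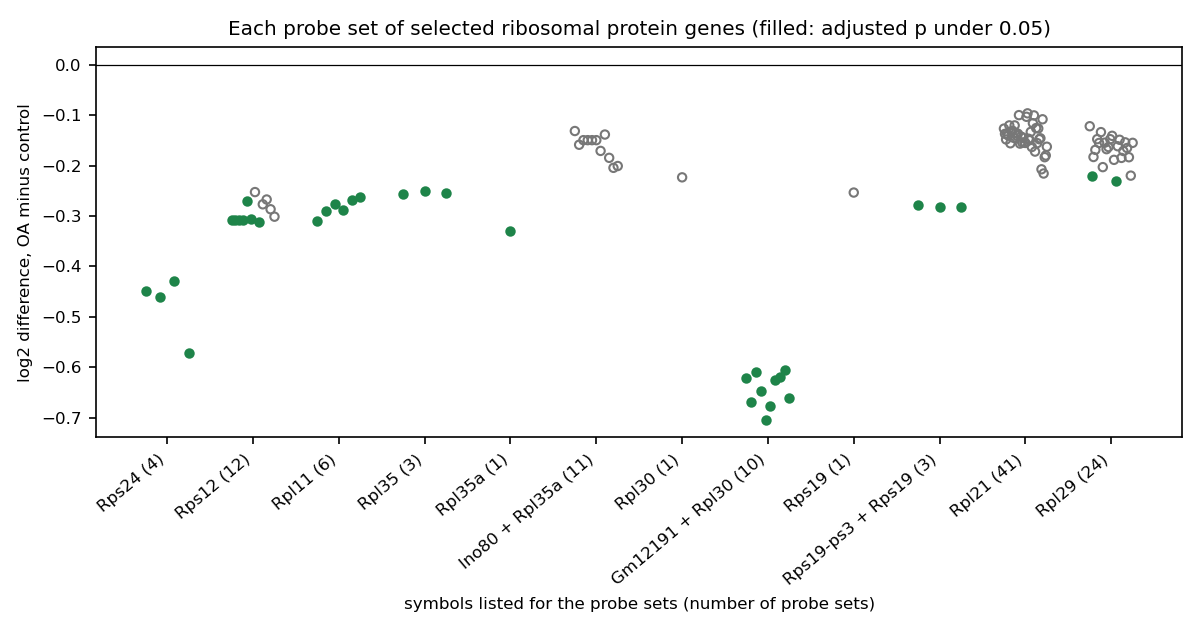
Log2 difference between OA and control (vertical axis) of every probe set (points) listed for selected ribosomal protein genes, alone or with a second symbol (horizontal axis, number of probe sets in brackets); filled points have a limma adjusted p under 0.05. The 10 probe sets listed for Gm12191 and Rpl30 lie lowest, between -0.60 and -0.70, and the 4 of Rps24 between -0.43 and -0.57.

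Lists of other protein complexes and of genes tied to ribosome production were read from the same fit. With OA the 74 mitochondrial ribosomal protein genes had a median of -0.05, with 2 lower and 0 higher. The 38 proteasome subunit genes had a median of -0.06 with 0 passing. The OA difference was below 0 for 57 of the 74 mitochondrial and 28 of the 38 proteasome genes, beside 60 of 74 cytosolic ones. With PA, PMA and SA the medians were -0.02, -0.02 and -0.05 for the mitochondrial list. For the proteasome list they were -0.02, 0.01 and -0.03, and for the cytosolic list -0.02, -0.03 and -0.05. The difference between these lists and the cytosolic genes was not tested. Of 16 listed translation factors whose mRNAs carry the pyrimidine start, 15 were measured, with an OA median of 0.00 and 0 passing. The largest difference among them was for Eef1b2, the nucleotide exchange factor of eEF1A, at -0.23 ± 0.06 (limma adjusted p = 0.0867). Fau, which encodes Rps30 fused to a ubiquitin-like protein, differed by -0.02.

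Of 35 ribosome biogenesis genes 0 passed with OA, and the median was 0.01. With PMA 1 rose, Gar1 of the pseudouridylation complex (0.29 ± 0.06, limma adjusted p = 0.0499). For PA against OA 2 were higher with PA, Taf1d, a factor of RNA polymerase I initiation (0.37 ± 0.08, limma adjusted p = 0.0177), and Nhp2 (0.32 ± 0.08, 0.0421). Of 23 genes of mTORC1 and Myc control 0 passed with OA. Ddit4, a stress-induced inhibitor of mTORC1, rose with SA (0.40 ± 0.07, limma adjusted p = 0.0267) and gave 0.30 ± 0.08 with OA (0.0691) and 0.27 ± 0.07 with PMA (0.0941). Mtor gave 0.18 ± 0.05 (0.0900) and Myc -0.22 ± 0.07 (0.155) with OA in the same limma fit.

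Many ribosomal protein genes carry small nucleolar RNA genes in their introns. RefSeq places at least 1 inside 25 of the 74, and among the 5 genes lower with OA inside Rps12 alone, which holds 3.

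Over the 19 arrays the genes whose values followed Rps24 most closely were Immp1l, Sat1, Ssr4, Rpl35 and Rps23, with Pearson correlations from 0.90 to 0.92 and Spearman correlations from 0.81 to 0.89. The arrays fall into 5 treatment groups, and with group means removed the Pearson correlations were 0.60 to 0.82. These are descriptions of the same arrays, chosen as the highest of all genes.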

How the data were processed

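The authors deposited log2 RMA expression per probe set, made with R 2.15.0 and affy 1.34.0 per the submitters' processing notes; 35556 probe sets on 19 arrays, from 1.97 to 13.3. Of these, 21218 carry 1 gene symbol in the platform annotation, which can be old, 1881 several and 12457 none. Each of 18820 genes was read from its brightest single-symbol probe set (highest mean of the 19 arrays), unfiltered. A linear model with group means was estimated from all arrays by the functions lmFit and eBayes of limma 3.58.1 (R 4.3.3), with Benjamini-Hochberg adjustment over all genes within each of 13 contrasts. The fit was tested on simulated data. Members were named where they passed in any contrast, had 1 of the 5 smallest p with an acid, were paralogues or P stalk genes, or had the most divergent probe sets; other named genes had 1 of the 3 smallest p of a fixed list. The members and lists were chosen with earlier results of these data known. Depth is not defined for arrays, and the labels give no batch, so no within-batch value was computed. Alternatives were other normalisation, filters, probe-set rules, variance models, a replicate block, fewer groups, array weights and leaving out arrays. Probe sets with no symbol were not used here.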

Additional observations from a re-analysis of the deposited data

Results flagged for a closer look

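In 6 of 148 groups of 4 arrays examined (the named genes in the control, PA, PMA and SA groups, with the median of the list and the mean of the probe sets listed for Gm12191 and Rpl30), 1 array lay far from the others. Chance alone gives about 1 in 20 groups. Rpl3l read 4.09 in SA replicate 3, against 4.21 to 4.23 in the other SA arrays. Rps4l read 5.96 in PA replicate 2, against 5.66 to 5.71. Rps19 read 9.41 in SA replicate 3, against 9.18 to 9.19. Rps27, a small-subunit protein, read 9.40 in PA replicate 2, against 9.74 to 9.77. Rplp2 read 5.82 in control replicate 4, against 5.65 to 5.67. Rpsa read 10.94 in SA replicate 2, against 11.03 to 11.04. Groups of 3 arrays (OA) were not examined.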

How the results depend on the processing

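No value changed direction past the threshold. The count of ribosomal protein genes lower with OA (5) became 8 with cyclic loess, 10 with every probe set, 10 with a trended robust spread, 15 with array quality weights and 3 with only the arrays compared; for PA against OA (6) it became 13, 10 and 12 with loess, every probe set and the trended spread, 0 with only the arrays compared and 2 without PA 2 and 4. With PMA (0) it became 1 with cyclic loess, without the dimmest genes, with the trended spread, without PA 2 and 4 or with several-symbol probe sets assigned, and 2 with weights; with SA (0) 1, 2, 2, 1 and 1 with loess, trended spread, weights, without PA 2 and 4, and probe sets assigned. For the mean of the acids (1) it became 2, 3, 5, 0 and 3 with loess, trended spread, weights, without PMA 1 and 4, and probe sets assigned; for saturated against monounsaturated (1) 4, 2, 4, 3, 0, 2 and 0 with loess, without the dimmest genes, trended spread, weights, only the arrays compared, without PA 2 and 4, and without PMA 1 and 4. For PA against PMA (0) it became 2, 1, 3, 1 and 1 with loess, without the dimmest genes, trended spread, weights and without PA 2 and 4, and for PA against SA (0) 1 with the trended spread. The median difference became -0.036, 0.010 and 0.032 for PA with every probe set, weights and without PA 2 and 4; -0.054, -0.054 and -0.050 for PMA with loess, with every probe set and without PMA 1 and 4; -0.078 for SA and -0.117 for OA with every probe set. With every probe set, a gene counted as passing if any 1 of its probe sets passed. The median was then taken over the 385 probe sets and not over the 74 genes, so it is an unlike measure. Fewer arrays or another set of probe sets enter some of these fits, and otherwise the cause was not tested. Leaving out 1 array at a time, the counts ran from 1 to 6 for OA, 0 to 2 for PA, 0 to 1 for PMA, 0 to 1 for SA, 1 to 7 for PA against OA, 0 to 1 for PA against PMA, PA against SA and the mean of the acids, 0 to 2 for saturated against monounsaturated, and stayed 0 for the other pairs and the interaction. The medians ran from -0.096 to -0.081 for OA, -0.025 to 0.021 for PA, -0.038 to -0.0082 for PMA and -0.057 to -0.038 for SA. Without single arrays the adjusted p rose to 0.0851 for Rpl11 (OA 2 or 3), 0.0944 for Rpl35 (control 3 or 4, OA 2 or 3), 0.0961 for Rps12 (control 3 or 4, any OA array) and 0.190 for Rpl35a, lost without 15 of the 19. With the replicate number as a block, 2 ribosomal protein genes passed with OA (Rpl11 and Rps24). The mean of the acids gave 0 and saturated against monounsaturated 0, and no other count moved by over 1.5 times. The numbers are not stated to mark a shared origin. With group means removed, same-numbered arrays of different groups correlated at -0.32 to 0.30, with 3 of 36 pairs over 0.1. Pairs with other numbers correlated at -0.45 to 0.42, with 20 of 108 over 0.1. Of 19 arrays, 2 correlated best with an array of their own number. The median over all probe sets was 5.43 and 5.36 on PA 2 and 4, and 5.41 and 5.35 on PMA 1 and 4. Over the 19 arrays it ran from 5.23 to 5.43. Array weights, leaving out PA 2 and 4 or PMA 1 and 4, and assigning several-symbol probe sets were chosen after seeing the data. Assigned so, Rpl30 gave -0.62 with OA, -0.54 with SA and -0.46 with PMA (adjusted p = 0.00227, 0.00830 and 0.0186), Rps19 -0.28 with OA (0.0187), and Rpl35a -0.13 with OA, no longer passing (0.493). Of 4428 recomputed values of named genes, 4171 kept direction and side of the threshold, 46 passed newly, 85 no longer passed and 126 uncalled ones changed sign.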
